A study of Mus musculus and Homo sapiens with 43 samples.

Results

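The histone genes described here are the 84 genes of the polysome table, of 24421 listed, that were chosen by their symbol: 68 clustered genes (Hist1 to Hist4) and 16 variant genes (symbols beginning with H2af, H3f3 or H1f). Histones are the proteins that package DNA. H2A, H2B, H3 and H4 form the core of the nucleosome, and H1 binds the linker DNA between nucleosomes. Most clustered genes are expressed in S phase to supply newly copied DNA, and their short mRNAs end in a stem-loop held by the stem-loop binding protein SLBP, with no poly(A) tail. Variant genes such as those of H2A.Z and H3.3 are mostly transcribed throughout the cell cycle into polyadenylated mRNAs.

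The study lowered leucyl-tRNA synthetase (LARS), the enzyme that charges tRNA with leucine, and asked how translation responded. In 4T07, a single mouse breast cancer cell line, a control hairpin (shCtrl) and 2 hairpins against Lars (shLars3, shLars4) were compared. Polysome profiling gave 3 libraries for each hairpin from mRNA on 1 to 2 ribosomes and 3 from mRNA on 3 or more. RNA-Seq gave 2 libraries per hairpin, and 1 library of ribosome footprints was labelled as a pool. How that pool divides into hairpins and replicates is not in the labels used here. RiboTag profiling pulled down ribosome-associated mRNA from PyMT mammary tumors of C57BL/6J mice, 3 Lars fl/wt and 3 Lars wt. All 6 tumors carried the tagged ribosomal protein allele rpl22HA fl/wt, MMTV-Cre and MMTV-PyMT, so the tag and the Lars deletion depend on Cre driven by the MMTV promoter. The age of the mice was not given in the sources used here.

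All values are the authors' comparison tables, which hold no value for a single library, so depth is unknown and each value is given with the deposited standard error (SE) where the table has one. The contrast and its direction are not stated for the polysome and RiboTag tables, and their values are described as lying on the positive or negative side. The mean counts of genes read once in the polysome table imply 27 libraries, 9 more than the 18 labelled, so its contrast may include libraries not described here. Whether replicates are separate cultures is not given, so p-values may measure technical spread. For Lars, the authors' deposited polysome table gave -0.82 (SE 0.30, DESeq2 adjusted p = 0.0285). The authors' deposited efficiency table put its mRNA at -1.46 and its footprints at -1.23, knockdown over control. The authors' deposited RiboTag table gave it -0.75 (SE 0.43, DESeq2 unadjusted p = 0.0807). Per 1000000 summed mean counts, luminal epithelial markers made up 629 in the polysome table and 5757 in the RiboTag table, and basal markers 684 in the latter. Unadjusted RiboTag p-values under 0.05 (DESeq2) stood on the positive side for 4 of 4 basal and 2 of 3 erythroid markers. The same held for 1 of 5 luminal and 1 of 5 fibroblast markers, where 1.19% of all genes had such a p on either side. After adjustment 0 of these markers passed. Their part in the RiboTag values was not tested.

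Of the 84 histone genes, 8 had a mean count of 0 in the polysome table, among them the testis linker histone gene H1fnt. Another 22 had a p but no adjusted p, at mean counts of up to 2.23, and 2, the linker histone genes Hist1h1b and Hist1h1e, had a log2 value but no p. That left 52 with an adjusted p, 43 clustered and 9 variant. The efficiency table listed 51 members, 44 clustered and 7 variant, and 64 had a RiboTag row, 54 clustered and 10 variant. A low count kept many clustered genes out of the test, so the 52 are not all members. Hist2h2aa1 and Hist2h2aa2 had identical rows, and many clustered genes of a class encode near-identical proteins and mRNAs, so reads may be split among copies and single values are uncertain.

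In the polysome comparison, clustered and variant histone genes with an adjusted p alike lay mostly on the negative side. The median log2 value of the 43 clustered genes was -1.62 (range -3.44 to 1.64), and 40 of 43 were below 0. Another 20 clustered genes had a log2 value but no adjusted p, and these lay on both sides of 0. Over all 63 the median was -1.33. The median of the 9 variants was -0.64 (range -1.47 to -0.03), with 9 of 9 below 0. For all 13485 genes tested the median was -0.12 and 57.2% were below 0. Past the threshold on the negative side (DESeq2 adjusted p under 0.05) were 4 clustered genes and 2 variants, where 17.5% of all genes passed. On the positive side 0 members passed, against 10.4% of all genes. The set was put together with these polysome results known, so the counts and medians describe it and support nothing further.

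The clustered genes were counted very thinly here. Their median mean count was 7.82 (maximum 177) and their median SE 1.16, while the variants had a median mean count of 2945 and a median SE of 0.33. Among all genes tested with a mean count under 50, the median log2 value was -0.19, 57.4% were below 0 and 3.88% passed on the negative side. Among genes with a mean count of at least 1000 the median was -0.22 and 28.6% passed on that side. With a mean count of at least 50, 5 clustered genes remained, with a median of -0.97. Across the 43 clustered genes the log2 value and the mean count had a Spearman rho of 0.33, a description over genes that share libraries. For the 52 members with an adjusted p, the log2 value and the genomic span had a rho of 0.41. Median spans were 492 bases for clustered genes and 2293 for variants matched to RefSeq. The part of gene length in these values was not tested.

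**Figure D1:**
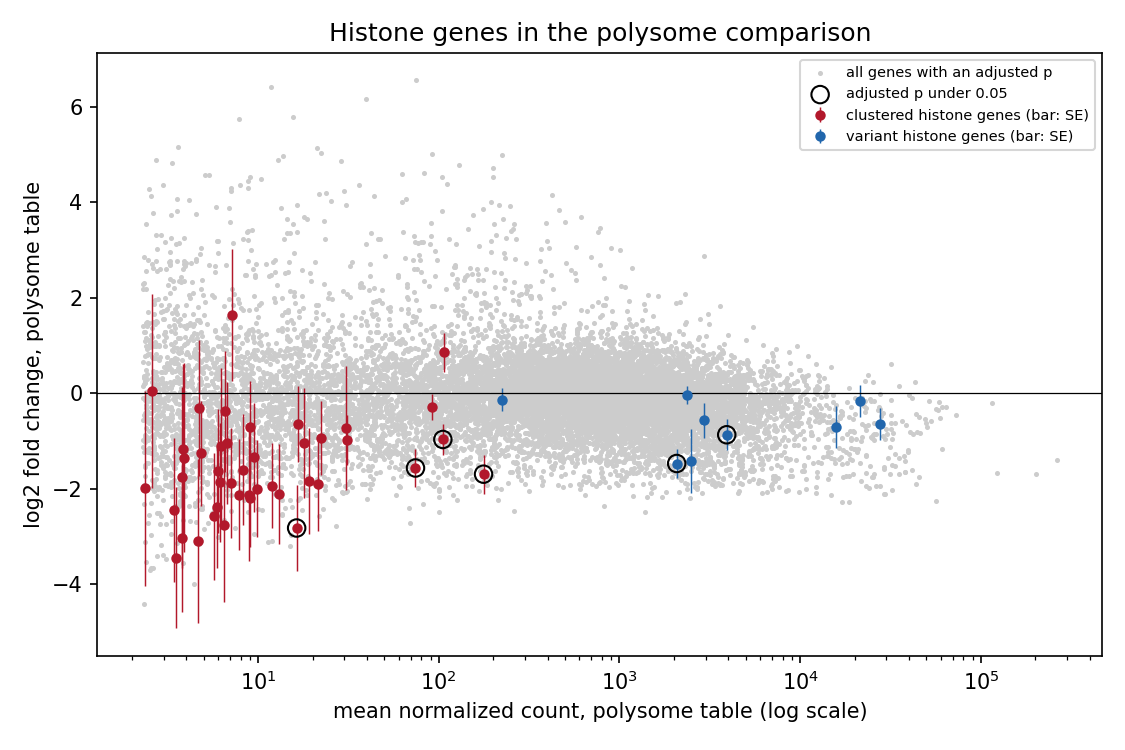
Deposited polysome log2 fold change against mean normalized count (log axis) for all 13485 genes with an adjusted p (grey), 43 clustered histone genes (red) and 9 variants (blue), with bars for the SE and circles for members past the threshold. The clustered genes lie mostly at mean counts under 50 with wide bars, the variants at 225 to 27608 with narrow ones, and all but 3 of both lie below 0.

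Hist1h2bc, an H2B gene of the large cluster on chromosome 13 (mm10 span 23684199 to 23692480), had the most reads of the clustered genes, with a mean count of 177. Its log2 value in the authors' deposited polysome table was -1.69 (SE 0.41, DESeq2 adjusted p = 0.000426), or 3.24-fold. The H2B gene Hist1h2bj (chromosome 13, 22043198 to 22043658) stood lowest of the genes that passed, at -2.82 (SE 0.89, DESeq2 adjusted p = 0.00877) with a mean count of 16.3 in the authors' deposited table. Its neighbor Hist1h4i, an H4 gene (chromosome 13, 22040960 to 22041362), stood at -1.56 (SE 0.40, DESeq2 adjusted p = 0.00102) in the same authors' deposited table. The fourth was Hist3h2a, an H2A gene of the small cluster on chromosome 11 (58954685 to 58955192), which overlaps Trim17 and can share its reads. The authors' deposited table gave it -0.97 (SE 0.33, DESeq2 adjusted p = 0.0169).

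Their promoters are shown because these genes lay on the same side and because histone genes are known for a few short elements before their starts. Where RefSeq's promoter table (GRCm38.p6) held an entry for a gene that passed, the 150 bases before its annotated start are shown 5′ to 3′ on the gene's strand. Capitals mark 3 motifs on either strand: the CCAAT box (CCAAT or its complement ATTGG), the TATA box in the form TATAAA (or TTTATA), and the octamer ATTTGCAT (or ATGCAAAT) read by POU-domain factors. The windows are chr6:136808098-136808247 (plus strand) for H2afj, chr13:22043048-22043197 (plus strand) for Hist1h2bj, chr13:22041363-22041512 (minus strand) for Hist1h4i and chr11:58954535-58954684 (plus strand, within Trim17) for Hist3h2a.
H2afj: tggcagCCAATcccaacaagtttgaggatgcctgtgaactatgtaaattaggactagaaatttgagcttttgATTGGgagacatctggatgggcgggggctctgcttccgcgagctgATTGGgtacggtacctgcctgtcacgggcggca
Hist1h2bj: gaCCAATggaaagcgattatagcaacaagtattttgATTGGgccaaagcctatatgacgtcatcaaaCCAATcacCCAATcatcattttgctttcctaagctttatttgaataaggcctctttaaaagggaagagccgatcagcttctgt
Hist1h4i: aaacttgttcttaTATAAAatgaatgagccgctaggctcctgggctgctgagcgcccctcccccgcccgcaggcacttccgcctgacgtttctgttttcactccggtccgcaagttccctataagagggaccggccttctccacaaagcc
Hist3h2a: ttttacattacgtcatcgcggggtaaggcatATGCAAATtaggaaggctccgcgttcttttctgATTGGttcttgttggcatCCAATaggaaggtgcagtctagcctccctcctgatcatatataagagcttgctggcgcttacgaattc
H2afj has 3 CCAAT boxes in its window and Hist1h2bj 4, Hist3h2a has 2 with an octamer upstream of them, and Hist1h4i has a TATAAA 137 bases before its start and no CCAAT. The motifs do not overlap one another in these windows.

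Over the 250 bases before the start, 82.0% of 61 clustered genes, 61.5% of 13 variants and 34.5% of all 27025 promoters held a CCAAT box. TATAAA stood in 47.5% of the clustered genes, 7.69% of the variants and 13.0% of all promoters, and the octamer in 21.3%, 7.69% and 1.61%. Matches were counted at any position in the 250 bases. Those of TATAAA in clustered genes lay 10 to 250 bases before the start (median 43). By class, every clustered H1, H2A and H2B promoter held a CCAAT box, as did 80% for H3 and 25% for H4. The octamer stood in 41.2% of H2A and 37.5% of H2B promoters and in 0 of the H1, H3 and H4 promoters. In the core clusters at least 9 H2A genes lie head to head with an H2B gene on chromosome 13. The starts of these 9 pairs were 164 to 281 bases apart (median 180), so the same stretch counts for both genes. Hist1h2bc, which has no promoter entry, is not among these pairs. Its span begins at 23684199, close to the H2A gene Hist1h2ac, whose span ends at 23683959. Whether Hist1h2ac and Hist1h2bc lie head to head was not determined. The polysome median of clustered genes was -1.84 with TATAAA (17 genes) and -1.60 without (21 genes), -1.48 with a CCAAT box (30 genes) and -2.03 without (8 genes), and -1.62 with the octamer (9 genes) and -1.76 without (29 genes). A match to these letters is a description of the sequence only.

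By class, the clustered polysome medians were -1.30 for H2A (8 genes), -1.40 for H2B (12), -1.86 for H3 (9), -1.87 for H4 (12) and -0.09 for H1 (2). All 8 H2A and 9 H3 values lay below 0, as did 11 of 12 for H2B and 11 of 12 for H4. The 3 clustered genes above 0 did not pass: Hist1h2bg at 1.64 (SE 1.38), the H4 gene Hist1h4n at 0.05 (SE 2.03) and Hist1h1c, a main somatic linker histone gene, at 0.86 (SE 0.40, DESeq2 adjusted p = 0.0961) in the authors' deposited table. Hist1h1c is thus the one well-counted clustered gene that points away from the others, at a mean count of 107. Hist2h2be, an H2B gene of the chromosome 3 cluster, stood near 0 at -0.28 (SE 0.27, DESeq2 adjusted p = 0.48) in the authors' deposited table. Among the most negative values, Hist1h2af (-3.44, SE 1.48), Hist1h3h (-3.09, SE 1.71) and Hist1h2ab (-3.04, SE 1.54) did not pass in the authors' deposited table, on mean counts under 5.

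Head-to-head partners need not have similar values at these counts. Hist1h2ag stood at -0.72 (SE 0.97) opposite Hist1h2bj at -2.82 in the authors' deposited table, and Hist1h2ae at -0.99 (SE 0.52) opposite Hist1h2bg at 1.64. For Hist1h2ai and Hist1h2bl the pair was closer, at -1.25 (SE 1.10) and -1.04 (SE 1.28) in the authors' deposited table.

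The variants gave firmer polysome values. H2afj, the gene of H2A.J (chromosome 6, 136808248 to 136810074), had a value of -1.47 (SE 0.31, DESeq2 adjusted p = 4.08e-05), or 2.77-fold, in the authors' deposited table. H2afx, whose product H2A.X is phosphorylated around DNA breaks (chromosome 9, 44334715 to 44336077), stood at -0.87 (SE 0.32, DESeq2 adjusted p = 0.0295) in the authors' deposited table. Its gene is known to yield both a stem-loop and a polyadenylated mRNA. Of the genes of H2A.Z, which marks promoters, H2afv stood at -1.41 (SE 0.67, DESeq2 adjusted p = 0.0998) and H2afz at -0.72 (SE 0.44, DESeq2 adjusted p = 0.229) in the authors' deposited table. Neither passed. The genes of H3.3, the replication-independent H3, had much the same values, -0.57 (SE 0.37) for H3f3a and -0.64 (SE 0.34) for H3f3b in the authors' deposited table. Near 0 lay H1f0 (-0.16, SE 0.33), the linker histone gene of resting cells, and the macroH2A genes H2afy (-0.03, SE 0.19) and H2afy2 (-0.13, SE 0.24) in the authors' deposited table. The variants thus ran in order from H2afj and H2afv through H2afx, H2afz and the H3.3 genes to H1f0 and macroH2A, and neighbors in that order differed by no more than the larger of their SEs, except H3f3a and H1f0.

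The 7 other listed variants were at or near 0 counts. The oocyte gene H1foo, H2afb1, H2afy3 (a pseudogene in RefSeq) and H1fx had mean counts of 0.377, 0.00811, 1.50 and 0.110 in the authors' deposited polysome table. For H1fx, a linker histone gene expressed in many tissues, the authors' deposited RiboTag table had a mean count of 442. The clustered genes of germ cells were as scarce in 4T07, with mean counts of 0.112 for Hist1h1t, 0.20 for Hist1h2aa and 0.0677 for Hist1h2ba in the authors' deposited polysome table.

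The share of counts that clustered genes took differed between the tables. Per 1000000 summed mean counts, clustered genes made up 48.3 in the polysome table and 574 in the RiboTag table, and variants 3912 and 4662. Most of the 574 came from Hist1h1c, at 334, and Hist1h2bc, at 145, so the difference does not describe the clustered genes as a set. The clustered H3 genes together made up 3.49 and 5.02, and Hist1h2bj 0.81 and 0.23. Hist1h1c had a mean count of 107 in the authors' deposited polysome table and 6977 in the authors' deposited RiboTag table, and Hist1h2bc 177 and 3018. These tables come from different cells and were normalized separately, so the values stand side by side without a test. The polysome, RNA-Seq and RiboTag libraries used Illumina's TruSeq RNA Library Prep Kit v2, which by design captures mRNA through its poly(A) tail. How much of each clustered gene's value comes from tailed transcripts was not tested.

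Translational efficiency, here the ratio of ribosome footprints to mRNA in 4T07, exceeded that of every listed variant in 33 of 44 clustered histone genes of control cells. On the log2 scale the 44 clustered genes had a median of 3.10, an 8.59-fold excess of footprints over mRNA, with a range of -0.26 to 7.57. The median of the 7 variants was -0.39 (range -3.86 to 1.97) and that of all 9833 genes 0.04, with 5th and 95th percentiles of -2.19 and 1.89. The same 33 clustered genes had a control log2 efficiency above 2, as did 0 of 7 variants and 4.03% of all genes. Of the 100 genes with the highest control efficiency, 26 were clustered histone genes. The 44, the 33 and the 26 each include Hist3h2bb-ps, a pseudogene in RefSeq. Its control log2 efficiency was 4.93 in the authors' deposited table, at a polysome mean count of 0.19. No SE or count accompanies these values, and the number of footprint replicates behind them is unknown. The mRNA side rests on libraries of the poly(A) kit, while the footprint pool followed another protocol. The part that this difference in libraries plays was not tested.

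Hist2h2ab, an H2A gene, had the highest control log2 efficiency of the members, 7.57 in the authors' deposited table, followed by the linker histone gene Hist1h1a at 7.29. Both were close to absent from the polysome table, with mean counts of 1.12 and 0.35. Across the 44 clustered genes the control efficiency and the polysome mean count had a Spearman rho of -0.38, again a description. By class, control medians were 3.92 for H4, 3.81 for H1, 3.51 for H2A, 2.45 for H3 and 2.29 for H2B. Values above 2 were found for 5 of 5 H1, 9 of 10 H4, 6 of 8 H2A, 8 of 12 H2B and 5 of 9 H3 genes.

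Of the 5 clustered genes with a polysome mean count of at least 50, 4 have a control log2 efficiency in the authors' deposited table: Hist1h1c at 4.42, Hist1h4i at 4.03, Hist3h2a at 3.90 and Hist2h2be at only 0.83. The H2B genes Hist1h2bg (-0.26) and Hist1h2be (0.06) and the H3 gene Hist1h3b (0.06) were lowest of the clustered genes in the authors' deposited table, inside the range of ordinary mRNAs. Of the variants, H2afx was highest at 1.97 in the authors' deposited table, just under the mark of 2, and H3f3b lowest at -3.86, a 14.5-fold excess of mRNA over footprints. H2afj (-2.06), H1f0 (-1.38), H2afv (-0.39), H2afy (0.31) and H2afy2 (0.87) lay between in the authors' deposited table. H2afz, H3f3a and Hist1h2bc have no row there. Under knockdown the clustered median was 2.71 and the variant median -0.06.

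**Figure D2:**
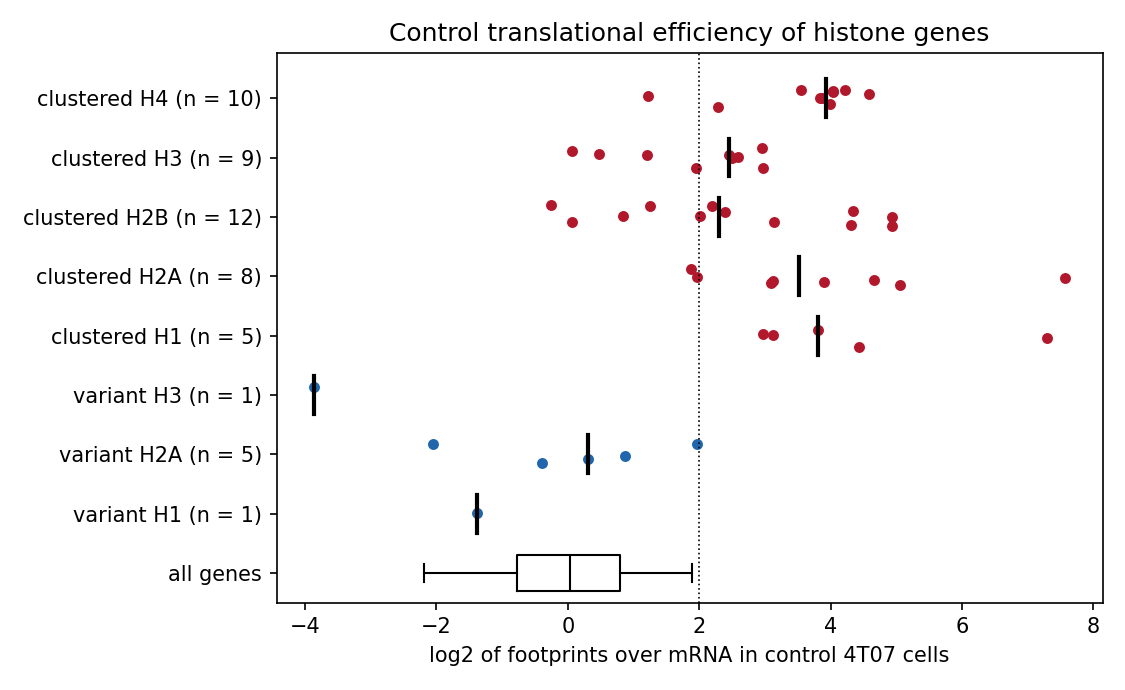
Control log2 efficiency (footprints over mRNA, horizontal axis) of 44 clustered (red) and 7 variant (blue) histone genes by class, 1 point per gene with bars at class medians, above a box for all 9833 genes (median, quartiles, whiskers at the 5th and 95th percentiles). Clustered class medians lie between 2.29 and 3.92, to the right of the dotted line at 2, and the 7 variants lie to its left.

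Lars knockdown moved no histone gene's efficiency past the threshold. Of 51 members 0 had an xtail adjusted p under 0.05 (0.0508% of all genes), and the smallest adjusted p was 0.302. The clustered median change was -0.35 (-0.55 by the first of xtail's estimates), with 32 of 44 below 0, and the variant median -0.26, with 6 of 7 below 0, where the median of all genes was -0.01 and 52% were below 0. Unadjusted xtail p-values under 0.05 were found for 7 clustered genes, all 7 negative, and 0 variants, against 6.35% of all genes. In the authors' deposited table these were the H2A genes Hist1h2af (-1.32, unadjusted p = 0.000399) and Hist2h2ab (-2.08), the H4 genes Hist1h4f (-1.08) and Hist1h4d (-0.76), the H2B gene Hist1h2bh (-0.84) and the H1 genes Hist1h1a (-2.22) and Hist1h1b (-0.55). The genes of the highest control efficiency, Hist2h2ab and Hist1h1a, were thus among those with the most negative change, though the control value enters both quantities.

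Footprints and mRNA gave different pictures. The clustered median footprint change was -0.40, with 36 of 44 below 0 (51.8% of all genes), and the variant median -0.28, with 6 of 7 below 0. For mRNA the clustered median was 0.00, with 21 of 44 below 0 (50.1% of all genes), and the variant median -0.16, with 5 of 7 below 0. The table tests neither change on its own. Footprint changes of the clustered genes ran from -0.93 to 0.69, and their mRNA changes from -1.46 (Hist1h4c) to 1.93 (Hist2h2ab) in the authors' deposited table. Hist1h4c and Hist2h2ab had low polysome mean counts, 3.88 and 1.12. Over all genes, the 5th and 95th percentiles were -0.43 and 0.45 for mRNA and -0.63 and 0.50 for footprints.

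The classes had unlike medians. All 5 H1 genes were below 0 in footprints (median -0.85) and in efficiency (median -0.66). Their efficiency ran from -0.55 for Hist1h1e to -2.22 for Hist1h1a in the authors' deposited table. Of H2B genes 11 of 12 were below 0 in efficiency (median -0.64) and 10 of 12 above 0 in mRNA (median 0.32). For Hist1h2bf, the authors' deposited table gave mRNA 1.55, footprints -0.33 and efficiency -2.14 (unadjusted xtail p = 0.0522). Its polysome mean count was only 0.278. Hist2h2be was the H2B gene above 0 in efficiency, at 0.43, with an mRNA value of -0.88 in the authors' deposited table.

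H3 genes were mostly below 0 in mRNA and divided in efficiency. Their mRNA median was -0.47, with 8 of 9 below 0, their footprint median -0.15, with 6 of 9 below 0, and their efficiency median 0.54, with 4 of 9 below 0. The most positive were Hist1h3b at 0.86, Hist1h3d at 0.77, Hist1h3h at 0.76, Hist1h3i at 0.72 and Hist1h3a at 0.54 in the authors' deposited table, none with an unadjusted p under 0.05. Hist1h3f at -0.51 was the lowest H3 gene, and Hist1h3g (-0.10), Hist1h3c (-0.04) and Hist1h3e (-0.02) lay near 0 in the authors' deposited table. Of H4 genes 10 of 10 were below 0 in footprints (median -0.47) and 8 of 10 in efficiency (median -0.48). Their exceptions were Hist1h4i, at 0.57, and Hist1h4c, at 0.53, whose mRNA stood at -0.84 and -1.46 in the authors' deposited table.

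Among H2A genes efficiency was evenly divided, with 4 of 8 below 0 and a median of -0.02. Apart from Hist1h2af and Hist2h2ab, it ranged from -0.20 for Hist3h2a to 0.30 for Hist1h2ak in the authors' deposited table. The differences between classes were not tested, since their genes share libraries and near-identical sequences. Across the 35 clustered genes with both values, polysome and efficiency values had a Spearman rho of 0.06, a description over genes.

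**Figure D3:**
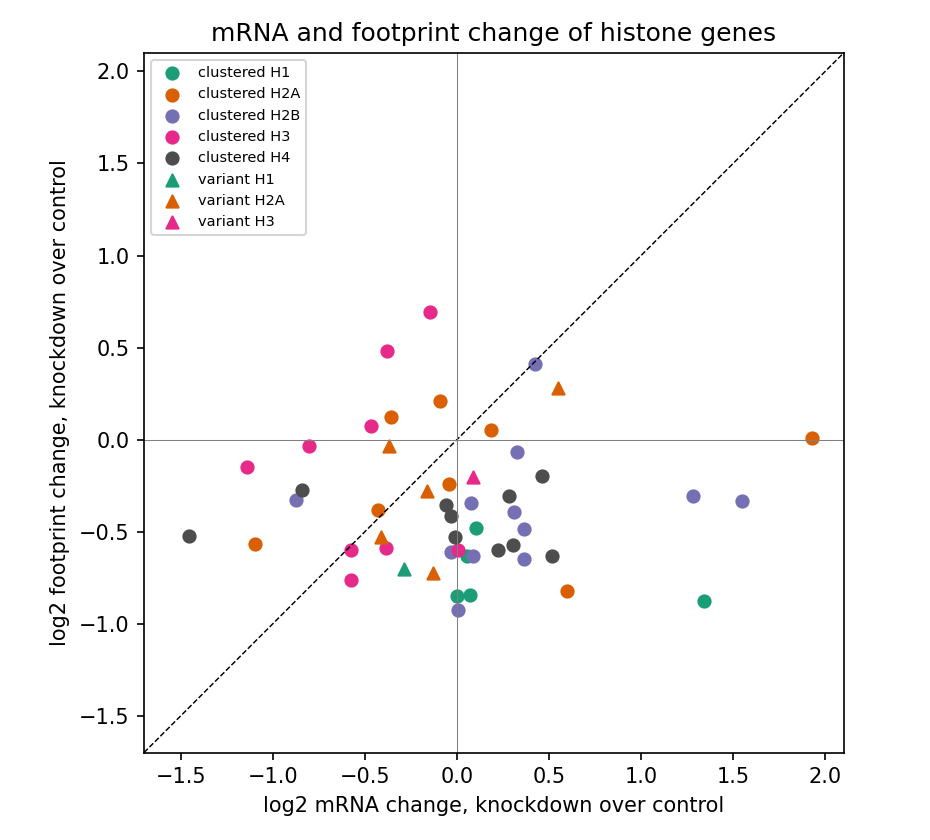
Deposited log2 footprint change against log2 mRNA change, knockdown over control, for 44 clustered (circles) and 7 variant (triangles) histone genes, colored by class. The dashed line marks equal change. H1 and most H2B genes lie below it, 5 of 9 H3 genes above it, and 42 of 51 points lie below 0 in footprints.

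Variant genes stayed within 1 log2 unit of 0 in all 3 values. For H2afx, the authors' deposited table gave mRNA -0.13, footprints -0.73 and efficiency -0.41 (adjusted xtail p = 0.937), and for H1f0 -0.29, -0.70 and -0.41. H2afj stood at -0.41, -0.53 and -0.12 by the authors' deposited table, so mRNA and footprints lay below 0 together. For H3f3b the efficiency change was -0.29 and for H2afv, the variant above 0, 0.31 in the authors' deposited table. H2afy2, a macroH2A gene, was the one variant with footprints above 0, at 0.28, beside an mRNA value of 0.55 in the authors' deposited table.

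In the PyMT tumors no histone gene differed between Lars fl/wt and Lars wt RiboTag samples past the threshold. Of 64 members 0 had a DESeq2 adjusted p under 0.05, as for all 23487 genes (0%), and 0 had an unadjusted p under 0.05, against 1.19% of all genes. The clustered median was -0.13 over 54 genes, with 28 below 0, and the variant median -0.12 over 10, with 7 below 0, where 50.5% of all genes were below 0. Most clustered genes had few reads, with a median mean count of 3.04 and SE up to 4.07. At a mean count of at least 10 there were 15 clustered genes (median -0.39, 10 below 0) and the 10 variants. At a mean count of at least 50, the median of the 8 clustered genes left was -0.04, with 4 below 0. In such tumor samples, fewer cells of a type and less RNA per cell cannot be told apart.

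The smallest unadjusted p among members belonged to the H2B gene Hist1h2be at -1.04 (SE 0.63, DESeq2 unadjusted p = 0.101), with a 95% interval of -2.28 to 0.20, in the authors' deposited RiboTag table. Next came H3f3a at -0.74 (SE 0.51, DESeq2 unadjusted p = 0.145) and Hist1h1c at -0.54 (SE 0.48, DESeq2 unadjusted p = 0.264) in the authors' deposited table. Hist1h3b (2.99, SE 3.22) rested on a mean count of 1.67, and H2afz stood at -0.40 (SE 0.44) in the authors' deposited table. Of the 6 genes that passed in the polysome table, 5 lay close to 0 in the tumors: Hist1h2bc at 0.03 (SE 0.48), Hist3h2a at 0.02 (SE 0.52), H2afj at 0.04 (SE 0.47), H2afx at -0.09 (SE 0.45) and Hist1h4i at -0.09 (SE 0.57) in the authors' deposited table. The sixth, Hist1h2bj, stood at -0.65 (SE 1.58) on a mean count of 4.78 in the authors' deposited table. The 95% RiboTag intervals of Hist3h2a, H2afx and Hist1h2bj include their polysome values. Those of Hist1h2bc (-0.92 to 0.97), H2afj (-0.89 to 0.97) and Hist1h4i (-1.21 to 1.03) do not. Neither contrast is stated, and the polysome and RiboTag values were not tested against each other. All 6 clustered H1 and H4 genes with a mean count of at least 10 were below 0, from -0.61 for Hist1h1d to -0.09 for Hist1h4i, in the authors' deposited table, and their 95% intervals include 0.

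**Figure D4:**
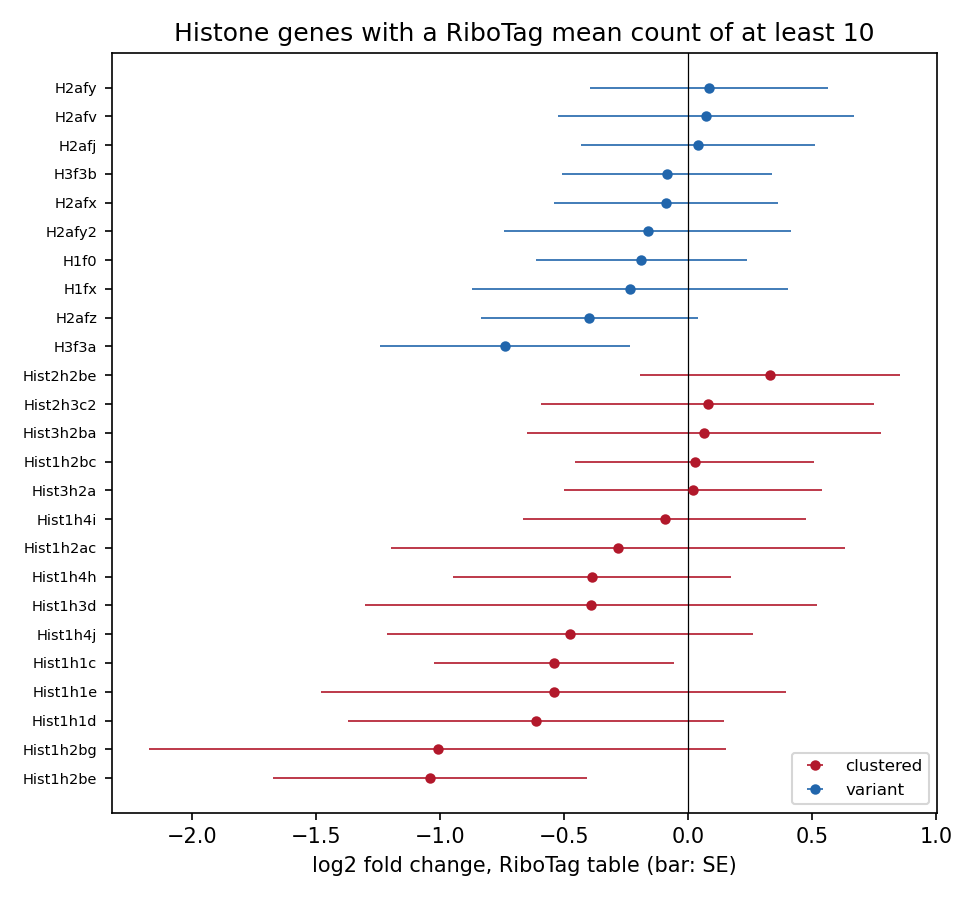
Deposited RiboTag log2 fold change with its SE (bars) for the 25 histone genes with a mean count of at least 10, clustered in red and variants in blue. The values run from -1.04 (Hist1h2be) to 0.33 (Hist2h2be), 17 of 25 lie below 0, and none has an unadjusted p under 0.05.

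Genes that serve histone mRNA and histone proteins were divided in the polysome comparison, at shares to be read against the 17.5% of all genes that passed on the negative and 10.4% on the positive side. At a mean count of at least 1000, which 11 of the 17, 14 of the 19 and 17 of the 22 genes of the 3 lists reach, these shares were 28.6% and 8.63%. Of 17 genes of histone mRNA transcription, 3′ end processing and turnover, 2 passed on the negative and 3 on the positive side (DESeq2 adjusted p under 0.05), with a median of 0.03. On the positive side stood Casp8ap2, whose product FLASH works in histone pre-mRNA cleavage, at 0.71 (SE 0.26), Npat, the activator of histone gene transcription, at 0.59 (SE 0.22), and Upf1, a helicase needed for histone mRNA decay, at 0.68 (SE 0.27) in the authors' deposited table. On the negative side stood Snrpd3, of the Sm ring, at -1.17 (SE 0.27) and the cap-binding gene Ncbp2 at -0.63 (SE 0.22) in the authors' deposited table. Slbp itself did not pass, at 0.29 (SE 0.17, DESeq2 adjusted p = 0.209) in the authors' deposited table.

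Of 19 histone chaperone genes 4 passed on the negative and 3 on the positive side, with a median of -0.12. The H3-H4 chaperone gene Asf1a stood at -0.97 (SE 0.19) and Set at -0.49 (SE 0.16), while Atrx, which deposits H3.3 with Daxx, stood at 1.48 (SE 0.29) and Cabin1, of the HIRA complex, at 0.66 (SE 0.26) in the authors' deposited table. Of 22 S-phase genes, negative values passed for 7 and a positive value for 1, with a median of -0.29; Tyms, of thymidylate synthesis, stood at -0.78 (SE 0.18) and Cdk2 at 0.44 (SE 0.15) in the authors' deposited table. In efficiency 0 genes of these 3 lists passed (xtail adjusted p), with medians of 0.07, -0.13 and 0.02, and 0 passed in the RiboTag table. In that table the S-phase list had a median of -0.37, with 2 of 22 above 0, where the clustered medians were -0.39 (15 genes, mean count of at least 10) and -0.04 (8 genes, at least 50). The part of S-phase genes in the histone values was not tested.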

How the data were processed

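Histone genes were taken from 3 tables of the authors' own comparisons, looked up by symbol. The members, the gene lists and the comparisons were chosen with earlier results of these data known. Per the file headers, the polysome and RiboTag tables are DESeq2 results. In them the authors deposited a mean normalized count, a signal averaged over libraries after scaling by size factors, a log2 fold change with its SE, the Wald statistic as a score, and p-values with an adjusted value. Per the file headers, the efficiency table is an xtail result with deposited log2 values and p-values and no SE. Per the submitters' processing notes, the tools were STAR 2.5.2a, Bowtie2 2.4.1, HTSeq, featureCounts and SAMtools, with the mm10 build and no roles given. The kit does not mark strand, so reads of overlapping genes cannot be told apart, and 9 members overlap another gene.

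No table has per-library values, so no model was refitted and depth is unknown. Of the efficiency rows, 18 whose symbol had turned into a date were left out. The efficiency direction follows from footprint minus mRNA change equalling knockdown minus control efficiency. Calls use the deposited adjusted p under 0.05. Medians, counts, 95% normal intervals (log2 value and SE) and Spearman correlations were computed with Python 3.11.15, numpy 2.4.6, pandas 2.3.3 and scipy 1.17.1, and figures with matplotlib 3.10.9. The Benjamini-Hochberg step was tested on simulated data. Coordinates and promoters are from RefSeq, GRCm38.p6 (the assembly behind mm10), where 82 of 84 members matched and 74 had a promoter entry.

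By plan, named genes were each variant in the polysome table, every clustered gene of the efficiency table, Lars and the 5 members of smallest RiboTag p. The plan also took the 8 highest and 8 lowest clustered log2 values at a mean count of at least 50 (5 exist). Of each related list it took up to 2 genes per direction, of smallest p. The plan was not kept in full. A planned comparison of polysome values with protein length was not run. The variants H2afb2 and H2afb3, part of the clustered efficiency genes, the chaperone gene Hjurp and the S-phase gene Gins1 were not described. Upf1 and Cabin1 were named beyond the plan. The efficiency genes described, and other genes (low-count, head-to-head and germ-cell genes, and Slbp), were chosen after their values were seen. The 2 tRNA tables were not used here.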

Additional observations from a re-analysis of the deposited data

How the results depend on the processing

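No paired analysis was possible because the tables hold no value for a single library, and for the same reason no replicate could be left out. Leaving out members with identical proteins was not run. Of 45 alternative values, 39 stayed close to the main value, 0 reversed, and the other 6 are given here. Close meant counts within 1.5 times, and medians within the median SE of single genes or equal to 2 decimals. That SE is wide for clustered genes, so a polysome median of -0.97 counted as close to -1.62. Some of the 39 could not differ and so test nothing. Genes without a deposited adjusted p cannot pass, so adding them left the calls unchanged. The 9 polysome and 10 RiboTag variants were the same genes at each mean count minimum. At an adjusted p under 0.1 (DESeq2), 7 clustered genes passed on the negative side in place of 4 and 1 (Hist1h1c) on the positive side in place of 0. At an adjusted p under 0.01, 1 variant (H2afj) passed in place of 2. The first xtail estimate gave a median efficiency change of -0.55 for clustered genes, against -0.35, and of -0.27 for variants, against -0.26. A control log2 efficiency above 1 was found for 1 variant (H2afx) in place of 0, and for 39 of 44 clustered genes beside 19.7% of all genes. Above 3 were 23 clustered genes beside 0.915% of all genes, and above 2 under knockdown 28 beside 2.93%; these efficiency marks were chosen after seeing the data. Clustered polysome medians were -1.04 at a mean count of at least 10 (15 genes) and -0.97 at 50 (5 genes). The RiboTag clustered median was -0.04 at a mean count of at least 50 (8 genes). Low counts limit most clustered genes.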
